A study of Mus musculus with 24 samples.

Results

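BV2 cells given 100 ng/mL lipopolysaccharide (LPS) were compared with BV2 cells given 50 ng/mL of the cytokine TGF-β (transforming growth factor-β), both after 72 h. The comparison took 6 of the 24 libraries of the series, 3 of LPS cells and 3 of TGF-β cells, chosen by the treatment and compartment in their labels and columns. BV2 is an immortalised mouse microglial line, so all libraries come from 1 dividing line and not from microglia taken from brain. The labels do not give the TGF-β isoform. Beside these stood the extracellular vesicles (EVs, membrane particles shed by cells) of LPS-treated and of TGF-β-treated cells, 3 libraries each, as a second readout, and untreated control cells, 3 libraries, as a common level. The 3 cell libraries given interleukin-10 (50 ng/mL, 72 h) entered only the estimate of spread.

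LPS, a component of bacterial outer membranes, is sensed by TLR4 with its partners CD14 and MD-2, and signals through MYD88 and TRIF to NF-kB, AP-1 and interferon regulatory factors. TGF-β binds a pair of receptor kinases that phosphorylate SMAD2 and SMAD3, which enter the nucleus with SMAD4. In the brain TGF-β is known for holding microglia in their homeostatic state, and LPS is the usual agent for driving them into an inflammatory one.

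Levels are in CPM (each library's counts scaled to a common total, with TMM factors) and are given per library or as mean ± SD of n = 3 libraries. Changes are log2 fold changes of LPS over TGF-β with their standard error (SE), and adjusted p-values come from edgeR's quasi-likelihood test with a threshold of 0.05. Rises and falls are of LPS against TGF-β cells unless control is named, so a rise can also be a gene lowered in TGF-β cells. The LPS cell libraries held 28.65 to 42.13 M counts and the TGF-β cell libraries 26.14 to 34.63 M, so that 3 counts, the limit a count of 0 allows, stand for 0.071 to 0.105 and 0.087 to 0.115 CPM. These limits cover counting error only. Across genes, libraries of 1 treatment correlated at r = 0.992 to 0.996 and libraries of different treatments at r = 0.935 to 0.943. Because no label links the 3 libraries of a treatment to independent cultures, the p-values reflect library-to-library spread that could be technical. All 15 macrophage and microglia markers had counts, summing to 18930 to 19700 CPM of the total in LPS libraries and 16390 to 17110 CPM in TGF-β libraries. Summed neuron, fibroblast and lymphocyte markers, of which 3, 3 and 2 of 8 were listed, stayed under 2.27 CPM in both, and Rbfox3, Col3a1 and Ms4a1 were at 0. Within them the pericyte marker Pdgfrb was called higher, at 1.88, 2.17 and 1.57 CPM in LPS libraries with no count in TGF-β libraries, at least 19.4-fold. The 2 listed oligodendrocyte markers, Cnp and Mbp, summed to 44.4 to 50.0 CPM in LPS libraries and 49.0 to 50.9 CPM in TGF-β libraries, and neither was called. The 3 listed dendritic cell markers summed to 5.65 to 6.62 CPM in LPS libraries and 12.1 to 15.25 CPM in TGF-β libraries. Of these, Zbtb46 was called lower in LPS libraries (log2 -1.40, adjusted p = 5.81e-07). The 4 listed astrocyte markers summed to 10.14 to 13.4 CPM in LPS libraries and 7.31 to 7.49 CPM in TGF-β libraries, with Gja1 at 0 and Slc1a2 (0.872 ± 0.0883 against 0.00925 ± 0.016 CPM, 1 count in TGF-β libraries, ratio 83.9 with an interval of 14.7 to 3347) and Aldh1l1 called higher, the Aldh1l1 call being lost in the 6 libraries alone and when any 1 library but LPS library 1 was left out. The 4 listed endothelial markers summed to 107.5 to 126.9 CPM in LPS libraries and 941 to 1020 CPM in TGF-β libraries, and the 4 listed neutrophil markers to 5.84 to 15.2 CPM in LPS libraries and 84.3 to 114 CPM in TGF-β libraries. In TGF-β libraries the first sum was mostly Flt1 (67.4 ± 7.31 CPM in LPS cells and 823 ± 55.5 CPM in TGF-β cells), a VEGF receptor that macrophages also use, and the second mostly Cxcr2. Vwf of the endothelial list was lower in LPS libraries as well (log2 -1.67, adjusted p = 7.21e-12). Kdr did not pass (log2 2.40, adjusted p = 0.0671, but 0.0138 without TGF-β library 3 and 0.0201 in limma-voom). In the same lists Pecam1 (0.543 ± 0.252 against 0.0849 ± 0.0343 CPM; adjusted p = 0.0292, 0.0617 in DESeq2 and not passing without LPS library 2 or TGF-β library 2 or 3) and Ngp (2.61 ± 0.806 against 0.242 ± 0.0793 CPM; adjusted p = 5.02e-05) were higher in LPS libraries. The part of other cell types in the results was not tested. P2ry12, a marker of homeostatic microglia, was not analysed here.

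Most of the transcriptome differed between LPS and TGF-β cells. Of 12148 genes tested, 3560 were higher in LPS cells (29.3%) and 3379 were lower (27.8%), 57.1% in all. Changes of more than 2-fold numbered 1187 higher (9.77%) and 1080 lower (8.89%), and 7415 genes (61.0%) had no overlap between the groups. The median over all tested genes was 0.01 on the log2 scale, so the counts below are read against nearly equal shares in both directions. Against control cells, which both treatments share, 52.0% of genes were called for LPS and 31.6% for TGF-β. The abundant transcripts differed as well. In LPS cells the iron store Fth1 took 3.17% of all counts and the membrane glycoprotein Gpnmb 2.66%. In TGF-β cells Gpnmb took 5.03%, the lipid carrier Apoe 4.55% and Spp1, which encodes osteopontin, 2.68%.

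**Figure D1:**
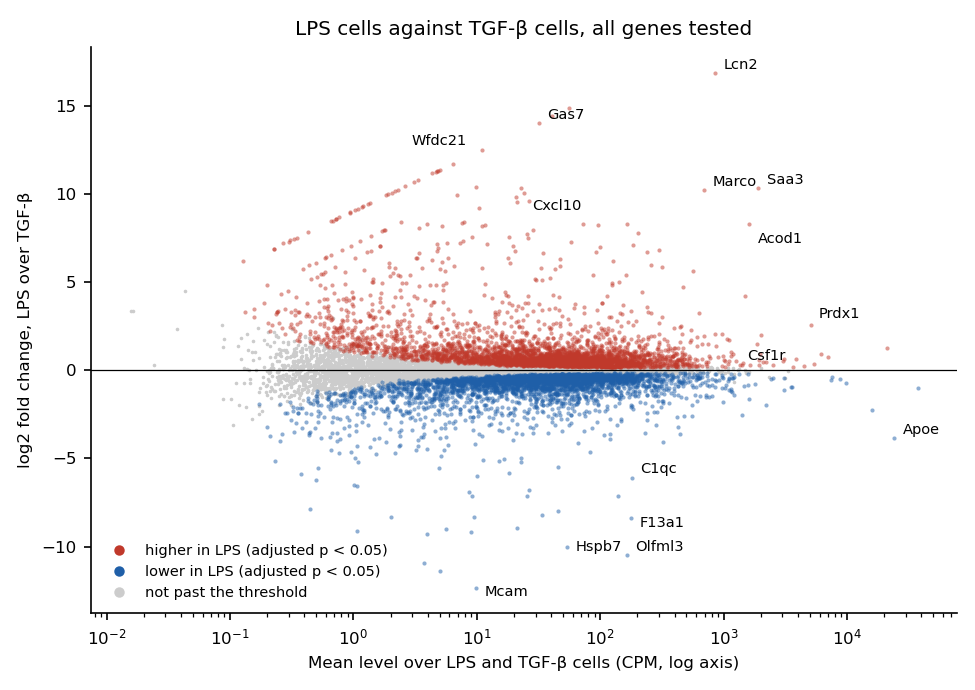
Each point is 1 of 12148 genes, with its mean level over LPS and TGF-β cells (CPM, log axis) on the x axis and its log2 fold change of LPS over TGF-β on the y axis; red and blue points passed the threshold. Saa3, Marco and Acod1 combine a large rise with a high level, Apoe a large fall with the highest level among the labelled genes, and the diagonal line of points at the upper left are genes with no count in TGF-β cells.

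The 12 largest rises were Lcn2, Gas7, Wfdc21, Csf3, Cxcl2, Fpr1, Cfb, Spic, Adh7, Aqp8, Fpr2 and Gbp6, of which 10 had no count in TGF-β cells. Lcn2, an iron-sequestering acute-phase protein, had 1478, 1841 and 1799 CPM in the LPS libraries, against 0, 0 and 0.0277 CPM in the TGF-β libraries. The TGF-β value is a single count, so the fold is a ratio of 158870 with a 95% counting interval of 28513.6 to 6.28e+06, and the log2 change of 16.86 became 18.75 without TGF-β library 3. The folds of the 10 genes with no count are lower limits set by 3 counts per library. Gas7, an adaptor of the actin cytoskeleton, had 57.4, 72.2 and 60.8 CPM in LPS libraries and no count in TGF-β libraries, and was at least 657-fold higher. Control cells had 19.6 ± 0.626 CPM of Gas7, and LPS cells were above control (log2 1.69, adjusted p = 9.48e-09). Wfdc21, a secreted protein with a WAP domain, was at least 229-fold higher (20.4, 24.4 and 21.6 CPM) and Csf3, the granulocyte growth factor, at least 131-fold (7.16, 17.1 and 13.9 CPM). The neutrophil chemokine Cxcl2 was at least 105-fold higher. The formyl peptide receptors Fpr1 and Fpr2, which detect bacterial peptides, were at least 98.4-fold and 54.2-fold higher, and their reads can be shared between near-identical family members. Cfb, which encodes complement factor B, rose by at least 96.8-fold, the macrophage transcription factor Spic by at least 90.4-fold, the alcohol dehydrogenase Adh7 by at least 69.6-fold and the water channel Aqp8 by at least 64.6-fold. Gbp6, an interferon-inducible GTPase, had 21.3, 18.4 and 18.9 CPM in LPS libraries and 1 count in all TGF-β libraries together, a ratio of 1874 (336.0 to 74058). Control cells had no count of Wfdc21, Csf3, Fpr1, Cfb, Spic or Adh7, and 0.571 ± 0.307 CPM of Aqp8. In all, 40 genes called higher had no count in TGF-β cells.

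**Figure D2:**
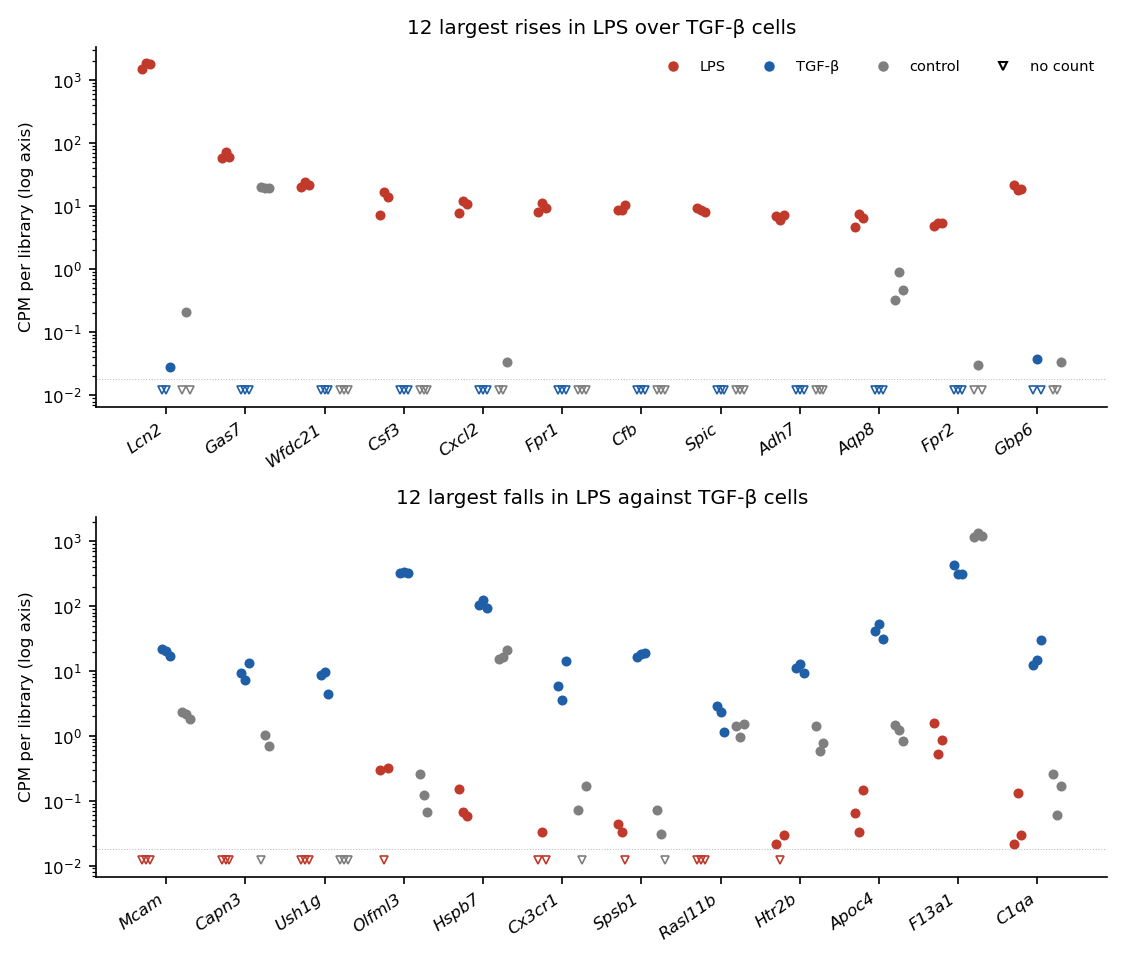
CPM of each library (log axis) for the 12 genes with the largest rises in LPS over TGF-β cells (top) and the 12 with the largest falls (bottom), in LPS, TGF-β and control cells; open triangles mark libraries with no count. Among the rises only Gas7 and Aqp8 have counts in all control libraries, and among the falls F13a1 is higher in control cells than in TGF-β cells.

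The 12 largest falls were in Mcam, Capn3, Ush1g, Olfml3, Hspb7, Cx3cr1, Spsb1, Rasl11b, Htr2b, Apoc4, F13a1 and C1qa. Olfml3, a secreted protein of microglia, had 0.302, 0 and 0.32 CPM in LPS libraries, against 327, 343 and 321 CPM in TGF-β libraries (log2 -10.50, SE 0.41, adjusted p = 1.19e-08; -11.54 in limma-voom). The fractalkine receptor Cx3cr1 had 1 count in all LPS libraries together and 5.88, 3.6 and 14.3 CPM in TGF-β libraries, whose spread is wide, at a ratio of 937.9 (167.9 to 37091). C1qa, a chain of the first complement component, had 0.0216, 0.134 and 0.0291 CPM in LPS libraries and 12.4, 14.7 and 30.1 CPM in TGF-β libraries (log2 -8.35; -9.38 without LPS library 2). In these 3 genes control cells had 0.148 ± 0.0972, 0.0801 ± 0.0838 and 0.161 ± 0.0975 CPM, and LPS cells did not pass against them (adjusted p of 0.648, 0.208 and 0.23). The apolipoprotein Apoc4 fell to 0.0811 ± 0.0577 CPM, against 42.3 ± 11.4 CPM in TGF-β cells (log2 -8.95; -9.56 without LPS library 3). The small heat shock protein Hspb7 fell to 0.092 ± 0.0513 CPM, against 109 ± 16.5 (log2 -10.04; -10.68 without LPS library 1). F13a1, the catalytic subunit of coagulation factor XIII, had 1.55, 0.534 and 0.872 CPM in LPS libraries and 439, 310.1 and 317 CPM in TGF-β libraries (log2 -8.40, SE 0.28, adjusted p = 1.05e-09). It was also below its control level of 1246 ± 76.2 CPM in TGF-β cells (log2 -1.81, adjusted p = 2.78e-05). In 4 genes LPS cells had no count: Mcam, which mediates adhesion, was lower by at least 234-fold, the protease Capn3 by at least 119.6-fold, the scaffold protein Ush1g by at least 89.5-fold and the small GTPase Rasl11b by at least 25.2-fold. Spsb1, a substrate adaptor of a ubiquitin ligase, had 3 counts in LPS cells and 16.5, 18.5 and 18.7 CPM in the TGF-β libraries (ratio 659.9, 225.4 to 3203; log2 -9.18, or -9.84 without LPS library 1). The serotonin receptor Htr2b had 2 counts in LPS cells and 11.3, 13 and 9.46 CPM in TGF-β libraries (ratio 612.6, 169 to 5065). A total of 5 genes called lower had no count in LPS cells.

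**Figure D3:**
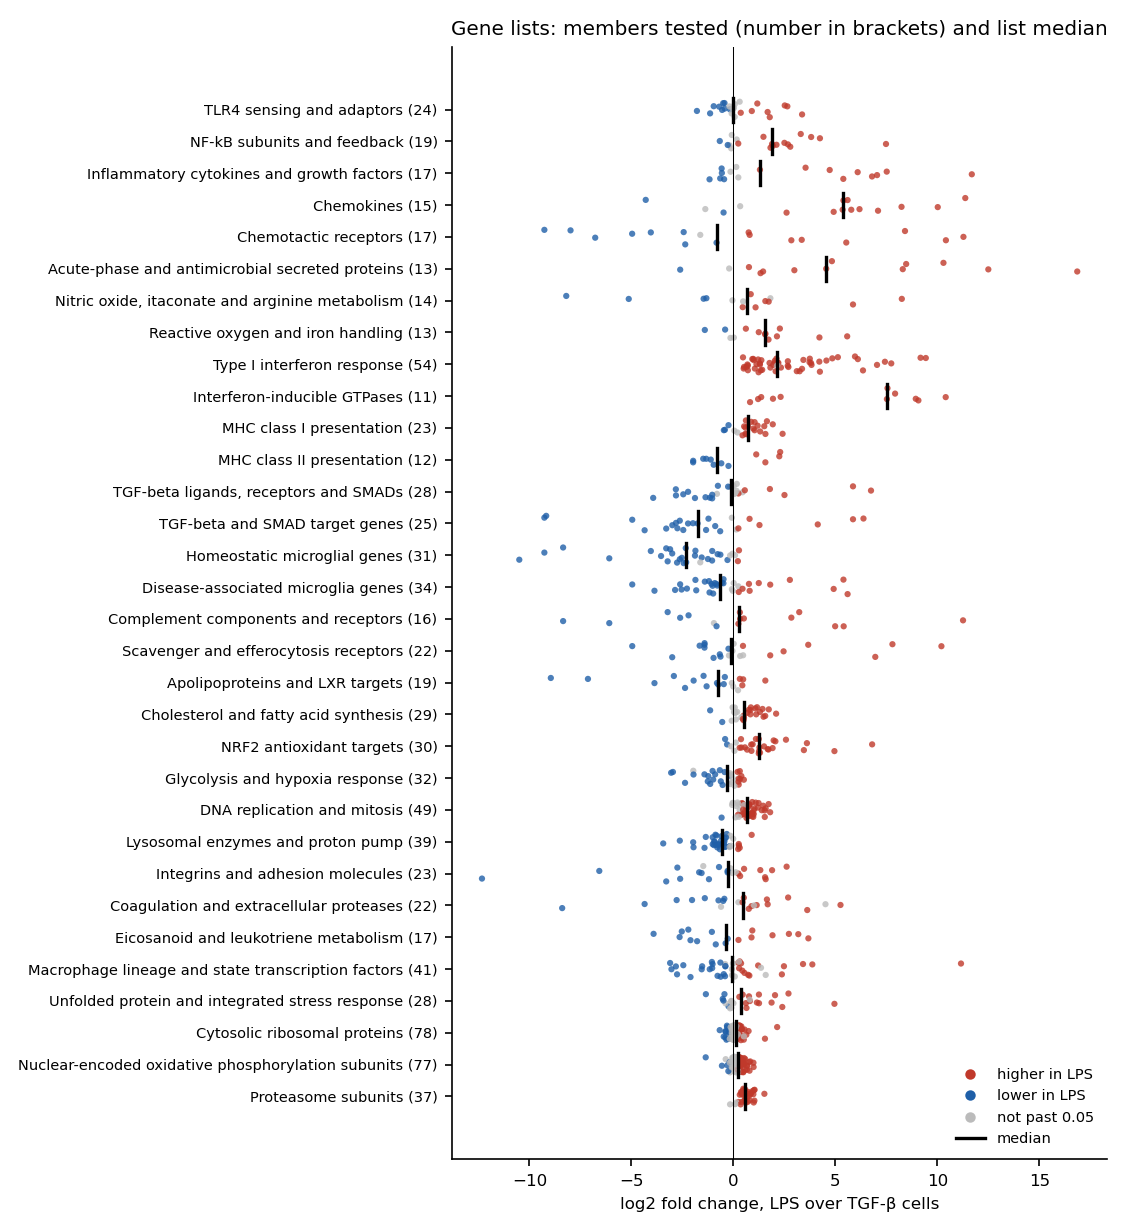
Each point is a tested gene of a list (number of tested members in brackets) at its log2 fold change of LPS over TGF-β; black bars are list medians and grey points did not pass the threshold. Interferon-inducible GTPases and chemokines have the highest medians, at 7.53 and 5.40, and homeostatic microglial genes the lowest, at -2.32. With genes silent in 1 group at their limits the first 2 medians are 4.28 and 5.36, in the opposite order.

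The sensing arm of the LPS pathway was called in shares near those of all genes, and its NF-kB feedback arm was higher in LPS cells. In the list of TLR4 sensing and adaptors, 8 of 24 tested genes were higher and 9 lower, with a median of -0.00. Of all tested genes 29.3% were higher and 27.8% lower, so these counts do not set the list apart. Tlr4 itself had 44.1, 32.7 and 41 CPM in LPS libraries and 34, 29.9 and 49 CPM in TGF-β libraries, which overlap (adjusted p = 0.764; 0.0447 without TGF-β library 3). Both groups lay below the control level of 57.5 ± 4.95 CPM (adjusted p = 0.00827 for LPS and 0.0077 for TGF-β). The co-receptor Cd14 rose to 434, 552 and 562 CPM, against 79.4, 85.4 and 82.7 CPM in TGF-β libraries (log2 fold change 2.64, SE 0.09, adjusted p = 9.61e-15). The changes in Cd14 were log2 1.26 (adjusted p = 4.81e-10) for LPS over control and -1.39 (adjusted p = 3.81e-10) for TGF-β over control. Irak3, which restrains MYD88 signalling, rose (52 ± 2.46 against 5.03 ± 0.735 CPM; log2 3.37, SE 0.15, adjusted p = 3.74e-13), as did the lipopeptide receptor Tlr2 (407 ± 14.2 against 180.4 ± 2.56 CPM; log2 1.17) and the TRIF adaptor Ticam2 (log2 1.78). Tlr2 was above control under both treatments (LPS log2 3.03, TGF-β log2 1.86). Further members, chosen here and below after their values were seen, were Myd88 (log2 0.90, adjusted p = 8.41e-07), the ubiquitin ligase Traf6 (log2 -1.14, adjusted p = 5.09e-09) and Ly96, which encodes MD-2 (7.88 ± 0.800 against 7.55 ± 1.33 CPM; adjusted p = 0.784).

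Of 19 NF-kB subunits and feedback genes, 13 were higher and 2 lower, with a median of 1.89. Nfkbia, the inhibitor that holds NF-kB in the cytoplasm and is its early target, had 409.8, 468 and 460.1 CPM in LPS libraries, against 46.7, 48.6 and 40.4 CPM in TGF-β libraries (log2 fold change 3.30, SE 0.08, adjusted p = 1.23e-16). Both treatments exceeded the control level of 30.4 ± 1.64 CPM, LPS by log2 3.87 and TGF-β by log2 0.57 (adjusted p = 1.83e-05). Tnip3, a partner of the deubiquitinase A20, rose to 51.4 ± 0.552 CPM, against 0.277 ± 0.0751 CPM (log2 7.48, SE 0.22, adjusted p = 6.89e-16). The kinase Ikbke (194 ± 9.11 against 13.9 ± 1.85 CPM; log2 3.81) and the nuclear cofactor Nfkbiz (78.6 ± 3.64 against 4.16 ± 0.328 CPM; log2 4.24) rose too. Among the subunits, the further members Relb (log2 1.82, adjusted p = 1.00e-07) and Nfkb2 (log2 1.89, adjusted p = 1.09e-11) rose. Rela was at 127 ± 4.48 against 114 ± 14.8 CPM (adjusted p = 0.126; 0.0166 with scaling by library size and 0.0436 without TGF-β library 2) and Nfkb1 at 25.5 ± 1.44 against 27.5 ± 2.37 CPM (adjusted p = 0.41). The 2 members that fell were the subunit Rel (log2 -0.67, adjusted p = 0.00103) and the deubiquitinase Otud7b (log2 -0.28, adjusted p = 0.00484).

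Among 17 inflammatory cytokines and growth factors, 9 were higher and 5 lower (median 1.30). Il1b, the secreted interleukin-1β precursor, had 474, 687 and 603 CPM in LPS libraries, against 5.67, 4.64 and 5.46 CPM in TGF-β libraries (log2 fold change 6.80, SE 0.22, adjusted p = 1.82e-10). Tnf had 141, 183 and 186 CPM in LPS libraries and 3.77, 3.37 and 4.91 CPM in TGF-β libraries (log2 fold change 5.39, SE 0.18, adjusted p = 2.11e-13). Neither gene overlapped between the groups, and in TGF-β cells Il1b was below control (log2 -0.91, adjusted p = 0.00649) while Tnf did not pass (log2 -0.34, adjusted p = 0.177). Il1a rose to 906 ± 33.5 CPM, against 34.4 ± 4.16 (log2 4.72, SE 0.13, adjusted p = 9.61e-15), and Ebi3, a subunit of IL-27 and IL-35, to 36.3 ± 1.55, against 0.528 ± 0.103. Il6 stayed low, at 0.733, 0.568 and 0.785 CPM in LPS libraries with no count in TGF-β libraries, at least 7.19-fold higher. The interleukin-1 receptor antagonist Il1rn, a further member, rose as well (79.6 ± 15.9 against 6.82 ± 0.898 CPM; log2 3.54). Igf1, a growth factor of microglia, fell (142 ± 2.87 against 319 ± 12.1 CPM; log2 -1.17, SE 0.06, adjusted p = 7.22e-12). The other 4 that fell were Pdgfa (log2 -0.57), Pdgfb (-0.65), Osm (-0.58) and Il15 (-0.46, adjusted p = 0.0173), the last not passing without LPS library 2 (0.0781) or TGF-β library 1 (0.0852).

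Chemokines had a median of 5.40, or 5.36 with genes silent in 1 group set at their limits, and 11 of 15 were higher and 2 lower. Cxcl10, which attracts T cells and is a target of both NF-kB and interferon, had 41.8, 50 and 51.9 CPM in LPS libraries, against 0, 0.0383 and 0.0832 CPM in TGF-β libraries (log2 fold change 10.02, SE 0.38, adjusted p = 9.40e-14). This value was 11.16 without TGF-β library 3 and 10.70 in limma-voom. Ccl5 had 167, 186 and 216 CPM in LPS libraries and 0.643, 0.613 and 0.61 CPM in TGF-β libraries (log2 fold change 8.24, SE 0.29, adjusted p = 7.20e-11). Ccl3, a macrophage inflammatory protein, rose to 1097 ± 139 CPM, against 22.7 ± 3.47 (log2 5.60, SE 0.17, adjusted p = 7.06e-12), and Ccl9 to 365 ± 55.8, against 2.6 ± 1.06 CPM. All 4 lay below their control levels in TGF-β cells, with TGF-β over control at log2 -2.66 (adjusted p = 0.00815), -2.50, -1.90 and -3.39 in that order. Further members were Ccl2 (65.1 ± 17.5 against 1.2 ± 0.244 CPM; log2 5.78) and Ccl4 (316 ± 53.9 against 7.57 ± 1.92 CPM; log2 5.40). The 2 that fell were Cxcl14 (0.329 ± 0.207 against 6.32 ± 1.34 CPM; log2 -4.30, or -4.89 without LPS library 2) and the platelet factor Pf4 (log2 -0.48, adjusted p = 0.000543). Reads of Ccl genes in clusters can be shared between close copies.

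Chemotactic receptors went both ways, 8 higher and 8 lower of 17 (median -0.83). Cxcr2, a receptor for CXCL2 and its relatives, had 0.302, 0.467 and 0.32 CPM in LPS libraries, against 89.7, 80.4 and 102 CPM in TGF-β libraries (log2 fold change -7.99, SE 0.17, adjusted p = 1.62e-17). Its ligand Cxcl2 thus moved in the opposite direction, being silent in TGF-β cells. The oxysterol receptor Gpr183 fell to 0.448 ± 0.243 CPM, against 52.2 ± 2.63 (log2 -6.78; -7.37 without LPS library 1), and Cxcr4, the CXCL12 receptor, to 1.37 ± 0.636, against 44.5 ± 5.04 CPM (log2 -4.97, SE 0.22, adjusted p = 3.56e-12). In Cxcr2, Gpr183 and Cxcr4, LPS cells were below control (log2 -5.74, -5.68 and -3.43) and TGF-β cells above it (log2 2.24, 1.10 and 1.53). The anaphylatoxin receptor C5ar1 rose (41.4 ± 5.48 against 5.76 ± 0.85 CPM; log2 2.84, SE 0.16, adjusted p = 8.10e-12). Ccr1, a further member, was below its control level of 15 ± 1.38 CPM in both groups (1.81 ± 0.689 against 1.02 ± 0.341 CPM), and its difference between them (log2 0.80, adjusted p = 0.0237) did not pass without LPS library 2 (0.171), TGF-β library 2 (0.0835) or 3 (0.095), nor in the 6 libraries alone (0.108) or in limma-voom (0.189).

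Promoters are shown for 5 genes whose transcripts moved with the lists above and below: Cxcl10 and Cxcl2 for NF-kB, Ifit1 and Gbp2 for interferon, and Smad6 for TGF-β. Each line gives 250 bases before to 50 bases after the annotated start, 5′ to 3′ on the gene's strand, from RefSeq on GRCm38.p6, with matches of the motifs named next in capitals. Capitals mark the NF-kB motif and the interferon-stimulated response element in Cxcl10 and Gbp2, the response element in Ifit1, the NF-kB motif in Cxcl2 and the palindromic SMAD motif in Smad6. The AP-1, CAGACA and PU.1 motifs searched below are not marked. Cxcl10 and Gbp2 also hold the AP-1 motif TGANTCA, and Cxcl2 and Ifit1 the short SMAD motif CAGACA, on either strand. In Cxcl10 and in Cxcl2, 2 overlapping NF-kB matches form 1 run of 11 capitals, so Cxcl10 has 3 NF-kB matches.
Cxcl10, chr5:92348840-92349139, minus strand: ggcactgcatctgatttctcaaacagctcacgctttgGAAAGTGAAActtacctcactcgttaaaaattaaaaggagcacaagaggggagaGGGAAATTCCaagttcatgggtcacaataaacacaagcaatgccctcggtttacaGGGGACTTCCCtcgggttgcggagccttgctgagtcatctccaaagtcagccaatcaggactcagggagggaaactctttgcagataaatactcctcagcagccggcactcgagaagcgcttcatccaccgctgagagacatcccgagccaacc
Cxcl2, chr5:90903649-90903948, plus strand: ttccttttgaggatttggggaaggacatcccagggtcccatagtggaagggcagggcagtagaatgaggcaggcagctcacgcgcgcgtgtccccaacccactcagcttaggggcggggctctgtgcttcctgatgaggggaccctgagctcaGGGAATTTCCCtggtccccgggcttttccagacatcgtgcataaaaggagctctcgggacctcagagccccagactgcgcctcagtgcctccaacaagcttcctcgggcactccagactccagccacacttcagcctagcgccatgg
Ifit1, chr19:34640639-34640938, plus strand: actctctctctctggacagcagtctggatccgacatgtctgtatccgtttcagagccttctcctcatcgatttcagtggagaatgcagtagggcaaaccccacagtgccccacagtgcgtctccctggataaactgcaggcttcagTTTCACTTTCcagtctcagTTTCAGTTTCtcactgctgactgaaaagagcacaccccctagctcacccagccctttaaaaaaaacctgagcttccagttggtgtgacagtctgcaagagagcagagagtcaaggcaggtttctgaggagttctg
Gbp2, chr3:142620413-142620712, plus strand: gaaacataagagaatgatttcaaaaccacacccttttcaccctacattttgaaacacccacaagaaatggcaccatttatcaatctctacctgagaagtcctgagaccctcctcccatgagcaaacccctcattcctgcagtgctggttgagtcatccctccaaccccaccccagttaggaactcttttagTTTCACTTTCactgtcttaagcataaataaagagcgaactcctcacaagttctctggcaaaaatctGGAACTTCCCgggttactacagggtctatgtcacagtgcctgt
Smad6, chr9:64022010-64022309, minus strand: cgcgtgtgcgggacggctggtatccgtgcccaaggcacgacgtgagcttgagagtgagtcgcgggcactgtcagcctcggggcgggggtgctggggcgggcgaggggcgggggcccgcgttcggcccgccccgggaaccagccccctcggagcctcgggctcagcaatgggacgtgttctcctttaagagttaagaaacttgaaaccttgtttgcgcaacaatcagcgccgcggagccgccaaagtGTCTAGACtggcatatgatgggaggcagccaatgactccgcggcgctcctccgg

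A first-listed promoter was found by symbol for 9207 of the 12148 tested genes, and motifs were searched on both strands. No motif contains another. The interferon-stimulated response element, written as TTTC, 2 bases and TTTC, occurred in 4.44% of promoters of genes higher in LPS cells and 2.16% of those lower, against 3.13% of tested genes and 3.49% of all 27025 promoters. Among genes changed by more than 2-fold the shares were 7.50% and 2.60%. The AP-1 motif TGANTCA was in 6.40% of higher and 5.34% of lower genes (10.4% and 6.81% over 2-fold), against 4.97% of tested genes and 7.93% of all promoters. For the NF-kB motif the shares were 10.8% and 11.0% (13.0% and 10.5% over 2-fold), against 10.1% of tested genes and 8.18% of all promoters. The short SMAD motif CAGACA was in 15.3% of higher and 16.6% of lower genes (16.2% and 19.2% over 2-fold), against 15.7% of tested genes and 21.0% of all promoters. The palindrome GTCTAGAC was rare, in 4 of 2751 higher and 8 of 2640 lower promoters, which are 0.145% and 0.303%, against 0.228% of tested genes and 0.211% of all. The PU.1 motif GAGGAAGT was at 3.56% and 3.45% (4.45% and 3.34% over 2-fold), against 3.48% of tested genes and 3.28% of all. These shares are descriptions of letters in 300 bases and not of bound sites.

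Acute-phase and antimicrobial proteins, which are secreted early in infection, were higher in LPS cells in 11 of 13 cases and lower in 1. The list median was 4.55, or 3.81 with silent genes at their limits. Saa3, serum amyloid A made by macrophages, had 3612, 3877 and 3998 CPM in LPS libraries, against 2.91, 3.1 and 3.11 CPM in TGF-β libraries (log2 fold change 10.30, SE 0.16, adjusted p = 1.62e-17). Haptoglobin (Hp), which binds free haemoglobin, had 285, 336 and 364 CPM in LPS libraries and 1.29, 0.958 and 0.86 CPM in TGF-β libraries (log2 fold change 8.31, SE 0.15, adjusted p = 2.39e-18). These are rises of 1258-fold and 316-fold in transcripts that control cells held at 7.08 ± 0.589 and 1.32 ± 0.200 CPM. The protease inhibitor Slpi, expressed in both groups, rose (563 ± 3.89 against 71 ± 9.21 CPM; log2 2.99, SE 0.09, adjusted p = 1.67e-15). Further members were the cathelicidin Camp (1.36 ± 0.264 CPM in LPS cells, no count in TGF-β cells, at least 14.1-fold higher) and lysozyme Lyz2 (8902 ± 342 against 5250.3 ± 382 CPM; log2 0.76). The 1 that fell was Lrg1, a modulator of TGF-β signalling (0.141 ± 0.0288 against 0.899 ± 0.104 CPM; log2 -2.61, adjusted p = 1.10e-06). Saa and lysozyme genes have close copies that can share reads.

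Among complement genes, C1q chains were lower in LPS cells and C3 and the alternative pathway genes Cfb and Cfp higher. Of 16 tested, 9 were higher and 6 lower (median 0.28). The higher ones included C1s1 and C1ra of the classical pathway, so that pathway's genes went both ways. C1qc, a chain of the protein that starts the classical pathway, had 4.7, 4.87 and 6.13 CPM in LPS libraries, against 335, 339 and 391 CPM in TGF-β libraries (log2 fold change -6.09, SE 0.13, adjusted p = 3.26e-17), and C1qb 67.8, 91.7 and 87 CPM, against 699, 734 and 869 CPM (log2 fold change -3.22, SE 0.12, adjusted p = 1.56e-12). Properdin (Cfp), which stabilises the alternative pathway convertase, was higher, at 221, 308 and 293 CPM in LPS libraries, against 7.26, 9.5 and 9.15 CPM in TGF-β libraries (log2 fold change 4.99, SE 0.14, adjusted p = 7.31e-14). Control cells had 178 ± 5.73 CPM of Cfp, much nearer to the LPS level. Further members were C3, the central component (1138 ± 50.5 against 122 ± 39.2 CPM; log2 3.23), and C4b of the classical pathway (9.44 ± 1.52 against 43.6 ± 8.22 CPM; log2 -2.20), for which LPS over control was -3.90 and TGF-β over control -1.70. The receptors C5ar1 and Itgax, a subunit of complement receptor 4, moved oppositely, with Itgax at 157 ± 4.77 against 958 ± 128 CPM (log2 -2.61, SE 0.09, adjusted p = 7.05e-15).

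The type I interferon response was higher in LPS cells almost throughout: 53 of 54 tested genes rose, and the median was 2.15. The member that did not pass was Ifit1bl1, near the floor at 0.376 ± 0.255 against 0.0749 ± 0.104 CPM (adjusted p = 0.087; 0.0455 and 0.0267 without LPS library 3 and TGF-β library 3). Oasl1, which restrains IRF7 translation, had 429, 536 and 549 CPM in LPS libraries, against 7.35, 8.35 and 8.57 CPM in TGF-β libraries (log2 fold change 5.96, SE 0.13, adjusted p = 1.93e-17). Slfn2 (324 ± 35.8 against 31.4 ± 2.69 CPM; log2 3.36), the ISG15 protease Usp18 (135 ± 15.4 against 14.2 ± 2.57 CPM; log2 3.25) and the ATPase Tor3a (179 ± 11.6 against 35.6 ± 2.91 CPM; log2 2.33) followed. In TGF-β cells these 4 were below control, with TGF-β over control at log2 -2.13, -1.63, -1.38 and -0.94 (adjusted p of 5.06e-11, 7.01e-11, 1.89e-08 and 4.22e-08). Further members were the interferon regulatory factor Irf7 (216 ± 31.5 against 11.6 ± 3.68 CPM; log2 4.21) and the ubiquitin-like Isg15 (65.4 ± 11.8 against 1.83 ± 0.959 CPM; log2 5.12). Ifit1, whose promoter is shown above, was at 39.2 ± 7.31 against 0.283 ± 0.319 CPM (log2 7.04, or 8.39 without TGF-β library 1) and Ifit3 at 50.5 ± 10.7 against 0.23 ± 0.146 CPM (log2 7.74, or 8.39 without TGF-β library 1). Irf7 was below control in TGF-β cells (log2 -2.68).

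The interferon-inducible GTPases, which attack membranes around pathogens, were higher in 11 of 11 cases. Their median was 7.53, or 4.28 with the genes silent in TGF-β cells at their limits. Irgm1 had 101, 122 and 109.6 CPM in LPS libraries, against 28.8, 27.4 and 30.3 CPM in TGF-β libraries (log2 fold change 1.94, SE 0.10, adjusted p = 4.49e-12). Gbp7 rose to 18.1 ± 1.67 CPM, against 0.0877 ± 0.0923 (log2 7.53; 8.18 in limma-voom, 8.90 without TGF-β library 3). Gbp3 rose to 36 ± 3.72, against 0.171 ± 0.181 (log2 7.56; 8.33 in limma-voom, 8.67 without TGF-β library 3). Gbp2, a further member with its promoter above, was at 57.2 ± 5.93 against 0.219 ± 0.249 CPM (log2 7.93, or 9.15 without TGF-β library 1). Since Ifit, Oas, Slfn, Gbp and H2 genes have close copies that may split reads, single members carry that uncertainty.

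MHC class I presentation was higher in 18 of 23 cases and lower in 3 (median 0.71). The proteasome activator Psme2 had 296, 343 and 325 CPM in LPS libraries, against 81, 83.3 and 88.7 CPM in TGF-β libraries (log2 fold change 1.93, SE 0.07, adjusted p = 2.08e-14). The non-classical gene H2-T22 rose (172 ± 18.1 against 32.4 ± 3.51 CPM; log2 2.41), as did H2-Q7 (45.6 ± 2.21 against 15.4 ± 2.7 CPM; log2 1.57) and the peptide transporter Tap1 (188 ± 17 against 82.5 ± 6.78 CPM; log2 1.19). The 3 that fell were chaperones of the endoplasmic reticulum that also serve other proteins: Pdia3 (log2 -0.47), Canx (-0.42) and Calr (-0.24, adjusted p = 0.00803). MHC class II presentation and costimulation was lower in 8 of 12 cases and higher in 4 (median -0.78). The invariant chain Cd74 had 175, 228 and 219 CPM in LPS libraries, against 42.8, 47.9 and 36.2 CPM in TGF-β libraries (log2 fold change 2.29, SE 0.10, adjusted p = 1.19e-12), with control cells at 239 ± 12.2 CPM. LPS cells did not differ from control in Cd74 by the test (log2 -0.21, adjusted p = 0.0824), and TGF-β cells were below it (log2 -2.50, adjusted p = 2.68e-12). The proteases that process the chain and its antigens were lower in LPS cells, cathepsin S (Ctss) at 895 ± 10.7 against 3513 ± 112 CPM (log2 -1.97, SE 0.06, adjusted p = 1.67e-15) and Lgmn at 701 ± 1.59 against 1514 ± 67 CPM (log2 -1.11). The costimulatory ligands went opposite ways: Cd86 fell (15.1 ± 2.55 against 59.5 ± 3.64 CPM; log2 -1.98), while the further members Cd80 (15.1 ± 1.4 against 3.16 ± 0.28 CPM; log2 2.25), Cd40 (log2 1.12) and Cd274, which encodes PD-L1 (log2 1.57), rose.

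In arginine metabolism Nos2 was higher and Arg1 lower in LPS cells, a pair often used to tell macrophage states apart. Nos2, inducible nitric oxide synthase, had 455, 705 and 692 CPM in LPS libraries, against 16.3, 5.14 and 9.93 CPM in TGF-β libraries (log2 fold change 5.86, SE 0.43, adjusted p = 3.72e-06). Arg1, which breaks arginine down to ornithine, had 0.302, 0.134 and 0.203 CPM in LPS libraries and 77.2, 49.6 and 74.3 CPM in TGF-β libraries (log2 fold change -8.20, SE 0.52, adjusted p = 1.03e-06). Control cells had 73.9 ± 14.6 CPM of Nos2 and 268 ± 64.6 CPM of Arg1, and TGF-β cells were below control in both (adjusted p = 0.000683 and 0.000782). Acod1, which makes itaconate, had 3026, 3415 and 3248 CPM in LPS libraries, against 12.1, 8.51 and 10.8 CPM in TGF-β libraries (log2 fold change 8.26, SE 0.14, adjusted p = 1.90e-17). The list had 7 higher and 4 lower of 14 (median 0.66), the lower ones being Arg1, Sat1, Kynu and, as a further member, the arginine transporter Slc7a2 (log2 -1.32, adjusted p = 2.19e-08). Odc1, the first enzyme of polyamine synthesis, rose (198 ± 11.7 against 66.8 ± 2.88 CPM; log2 1.57), and Sat1, which breaks polyamines down, fell (427 ± 21 against 1174 ± 39.1 CPM; log2 -1.46). Kynu, of tryptophan breakdown, fell to 0.83 ± 0.22 CPM, against 29.3 ± 3.53 (log2 -5.13, SE 0.27, adjusted p = 4.87e-12), with control at 0.700 ± 0.378 CPM.

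Reactive oxygen and iron handling was higher in 9 of 13 cases and lower in 2 (median 1.55). The mitochondrial dismutase Sod2 had 229.5, 242 and 219 CPM in LPS libraries, against 49.6, 55.6 and 52 CPM in TGF-β libraries (log2 fold change 2.13, SE 0.08, adjusted p = 2.19e-14). The NADPH oxidase subunit Ncf4 (175 ± 12.3 against 59.6 ± 3.79 CPM; log2 1.55) and its activator Rac2 (799 ± 65.8 against 269 ± 8.28 CPM; log2 1.57) rose. Haem oxygenase Hmox1 rose (1688 ± 129 against 512 ± 18.5 CPM; log2 1.72). The 2 that fell were the iron exporter ferroportin, Slc40a1 (73.7 ± 6.21 against 195 ± 27.5 CPM; log2 -1.40), and the light ferritin chain Ftl1 (log2 -0.41, adjusted p = 0.000166), while the heavy chain Fth1 rose (29807 ± 746 against 12594 ± 1077 CPM; log2 1.24). Ferritin genes have processed copies that can share reads. NRF2 antioxidant targets were higher in 25 of 30 cases and lower in 2 (median 1.24). The peroxidase Prdx1 had 8731, 8477 and 8848 CPM in LPS libraries, against 1363, 1432 and 1571 CPM in TGF-β libraries (log2 fold change 2.58, SE 0.08, adjusted p = 8.70e-16). Glutathione reductase Gsr (443 ± 38.7 against 36.4 ± 5.75 CPM; log2 3.60), sulfiredoxin Srxn1 (748 ± 8.45 against 179 ± 8.69 CPM; log2 2.06) and G6pdx of the pentose phosphate pathway (1106 ± 72.3 against 292 ± 24.3 CPM; log2 1.92) followed. In these 4, LPS over control was log2 1.55, 2.42, 0.57 and 0.87, and TGF-β over control log2 -1.03, -1.18, -1.49 and -1.05. The 2 that fell were Ftl1 and the glutathione transferase Mgst1 (log2 -0.31, adjusted p = 0.00216).

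The TGF-β pathway's own components were lower in LPS cells in 12 of 28 cases and higher in 6 (median -0.12). The receptor Tgfbr1 had 24.1, 16.9 and 20.5 CPM in LPS libraries, against 72.2, 66.2 and 89.5 CPM in TGF-β libraries (log2 fold change -1.89, SE 0.13, adjusted p = 3.12e-10). Its partner Tgfbr2 had 49.1, 49.3 and 42.7 CPM in LPS libraries and 99.4, 94.3 and 96.3 CPM in TGF-β libraries (log2 fold change -1.04, SE 0.09, adjusted p = 4.71e-09). Against control, Tgfbr1 was log2 -0.77 (adjusted p = 5.57e-05) for LPS over control and 1.12 (adjusted p = 1.09e-06) for TGF-β over control, and Tgfbr2 was log2 -0.96 (adjusted p = 2.17e-08) for LPS over control and 0.08 (adjusted p = 0.516) for TGF-β over control. The pseudoreceptor Bambi, which dampens TGF-β receptors, fell to 2.4 ± 0.298 CPM, against 37 ± 1.29 (log2 -3.93, SE 0.13, adjusted p = 4.15e-15). The corepressors Ski (4.83 ± 0.811 against 34 ± 4.99 CPM; log2 -2.82) and Skil (13 ± 2.92 against 71.7 ± 8.8 CPM; log2 -2.46, SE 0.21, adjusted p = 1.22e-07) fell. Skil was above its control level of 4.51 ± 1.13 CPM under both treatments (LPS log2 1.52, adjusted p = 4.37e-05; TGF-β log2 3.98). The inhibitory SMADs, which end the signal and are its targets, were lower: Smad7 had 1.08, 1.34 and 0.814 CPM in LPS libraries and 13.1, 4.14 and 5.44 CPM in TGF-β libraries (log2 -2.82, adjusted p = 5.58e-06; -2.17 without TGF-β library 1). Smad6, a further member with its promoter above, was at 2.58 ± 0.301 against 12.1 ± 2.13 CPM (log2 -2.22, adjusted p = 2.92e-06). Of the signal-carrying SMADs, Smad2 was higher (log2 0.56, adjusted p = 0.000192), and Smad3 (12 ± 1.63 against 11.3 ± 1.07 CPM; adjusted p = 0.624) and Smad4 (adjusted p = 0.805) did not pass. The latent TGF-β binding protein Ltbp2 (3.82 ± 0.649 against 0.0555 ± 0.0961 CPM; log2 5.86, 7.19 in limma-voom, 9.96 without TGF-β library 3) and the activator Thbs1 (9.4 ± 2.12 against 0.0778 ± 0.0676 CPM; log2 6.75) rose. The ligand Tgfb1 differed slightly (160.3 ± 19 against 135 ± 11.4 CPM; log2 0.25, adjusted p = 0.0177), a call lost without LPS library 2 or 3 or TGF-β library 3 and in the 6 libraries alone (0.0659).

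TGF-β and SMAD target genes were lower in LPS cells in 17 of 25 cases and higher in 6 (median -1.76). The 6 that rose were Gadd45b, Cdkn1a, Acta2, Col4a2, Ltbp2 and Zeb2, with the largest rise at log2 6.38. Changes over 2-fold numbered 4 of these rises and 15 of the falls. The integrin subunit Itgav, which with its partners activates latent TGF-β, had 40.4, 35.3 and 38.6 CPM in LPS libraries, against 267, 215 and 287 CPM in TGF-β libraries (log2 fold change -2.75, SE 0.11, adjusted p = 4.18e-14). LPS cells did not differ from control in Itgav by the test (log2 -0.16, adjusted p = 0.186). The inhibitor of DNA binding Id2 fell (71.6 ± 5.44 against 283 ± 14.8 CPM; log2 -1.98), as did the repressor Bhlhe40 (147 ± 0.832 against 497 ± 61.7 CPM; log2 -1.76). In these 2, LPS cells were below control (log2 -1.34 and -1.78), while TGF-β over control was 0.65 and -0.02. Further members were Id3 (11.6 ± 1.35 against 27.1 ± 2.04 CPM; log2 -1.22), which both treatments raised over control (LPS log2 2.82, TGF-β log2 4.04), the zinc finger factor Klf10 (log2 -1.34), Itgb5 (15.9 ± 3.45 against 157 ± 111 CPM; log2 -3.29, -2.56 without TGF-β library 1) and the cell cycle inhibitor Cdkn1a, which rose (log2 0.79). Id1 fell as well (log2 -0.89, adjusted p = 0.0364), a call that was lost when any 1 LPS library or TGF-β library 3 was left out, with scaling by library size (0.0582) and in limma-voom (0.0636). For Cdkn1a, LPS cells did not differ from control by the test (log2 -0.07, adjusted p = 0.459), and TGF-β cells were below it (log2 -0.86, adjusted p = 4.70e-08).

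Homeostatic microglial genes were lower in LPS cells in 25 of 31 cases, the lowest median of the lists at -2.32. Tmem119, a surface protein of brain microglia, had 20.9, 27.4 and 28.7 CPM in LPS libraries and 119, 139.8 and 124 CPM in TGF-β libraries (log2 fold change -2.32, SE 0.13, adjusted p = 1.43e-11). Tmem119 was above its control level of 11.2 ± 2.00 CPM in both, by log2 1.19 in LPS cells and 3.51 in TGF-β cells. The efferocytosis receptor Mertk fell to 12.8 ± 0.758 CPM, against 102 ± 11.6 (log2 -3.00, SE 0.10, adjusted p = 3.77e-15), and its ligand Gas6, a further member, to 167 ± 4.87, against 398 ± 14.9 (log2 -1.25). Csf1r, the receptor on which microglia depend for survival, had 1236, 1468 and 1393 CPM in LPS libraries and 1285, 1263 and 1329 CPM in TGF-β libraries, which overlap (log2 0.08, adjusted p = 0.344). Both were above control (log2 0.73 and 0.65). Further members that fell were the ectonucleotidase Entpd1 (32.5 ± 0.993 against 164 ± 9.48 CPM; log2 -2.34), the adhesion receptor Adgrg1 (3.31 ± 0.838 against 38.4 ± 4.8 CPM; log2 -3.55) and the protease inhibitor Cst3 (419 ± 45.5 against 2418 ± 201 CPM; log2 -2.53). The 2 that rose were small changes in Bin1 (log2 0.22, adjusted p = 0.00959) and Lpcat2 (log2 0.27, adjusted p = 0.0224), and only 1 was called without LPS library 2 or 3 or TGF-β library 2. Cx3cr1, Itgb5, Tgfbr1 and Tgfbr2 stand in this list and in the TGF-β lists. In bulk samples fewer cells of a kind and less RNA per cell cannot be told apart.

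Transcription factors of macrophage lineage and state were 14 higher and 19 lower of 41 (median -0.08). Cebpd rose (37.6 ± 4.82 against 6.75 ± 0.737 CPM; log2 2.48) and Cebpa fell (7.81 ± 0.616 against 43 ± 8.62 CPM; log2 -2.46), so these relatives went opposite ways. Mef2c, a further member and a factor of homeostatic microglia, fell (12.4 ± 2.39 against 84.3 ± 29.4 CPM; log2 -2.76). The lineage factors Spi1, which encodes PU.1 (log2 0.31, adjusted p = 0.0013), and Irf8 (log2 -0.39, adjusted p = 0.000108) moved little. Socs3, a feedback inhibitor of cytokine receptors outside this list, had 46.3, 56.1 and 56.1 CPM in LPS libraries and 54.3, 54.5 and 43.5 CPM in TGF-β libraries (adjusted p = 0.672). Its level was above the control level of 24.3 ± 3.24 CPM in both groups (log2 1.12 and 1.06).

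**Figure D4:**
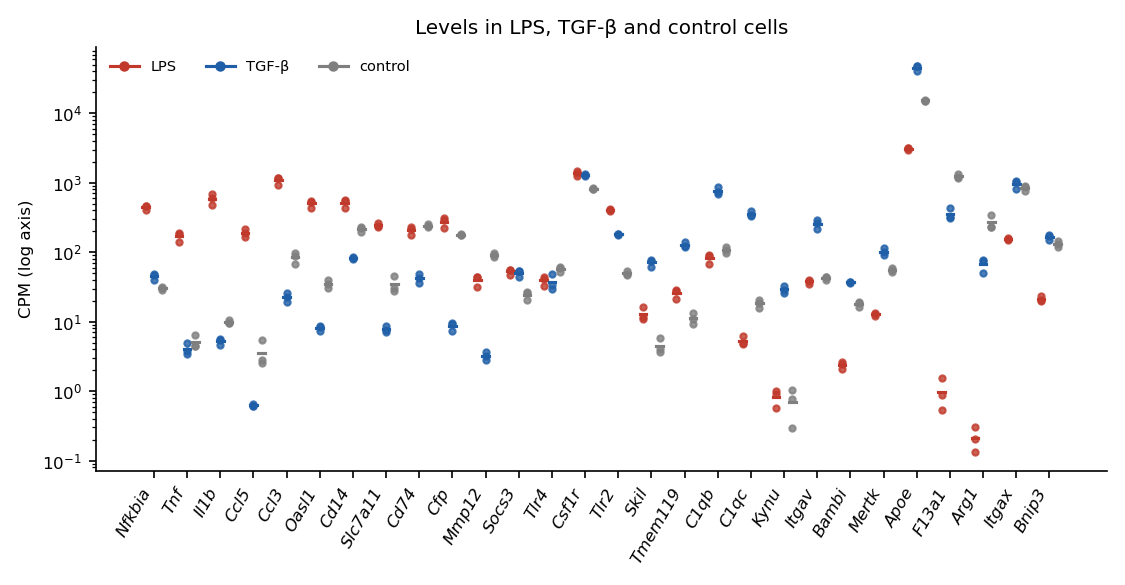
Levels in CPM (log axis) of 28 named genes in LPS, TGF-β and control cells, with 1 point per library and a bar at the mean. Socs3, Tlr4 and Csf1r overlap between LPS and TGF-β cells, Nfkbia, Tlr2, Skil and Tmem119 are above control in both, and Mmp12, F13a1 and Arg1 are highest in control cells.

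Disease-associated microglia genes, a set known from microglia around amyloid plaques and dependent on TREM2 and APOE, were 20 lower and 10 higher of 34 (median -0.68). Apoe had 2958, 3124 and 3157 CPM in LPS libraries, against 47368, 47434 and 40343 CPM in TGF-β libraries (log2 fold change -3.87, SE 0.08, adjusted p = 1.62e-17). Trem2, the lipid-sensing receptor, had 129.9, 139.7 and 152 CPM in LPS libraries and 515, 558 and 461 CPM in TGF-β libraries (log2 fold change -1.86, SE 0.08, adjusted p = 1.10e-13). Both genes lay below control in LPS cells (log2 -2.32 and -1.20) and above it in TGF-β cells (log2 1.56 and 0.67). The tetraspanin Cd9 fell (434 ± 3.84 against 1536 ± 21.2 CPM; log2 -1.82), as did the further members Spp1 (5439 ± 257 against 26418 ± 2459.7 CPM; log2 -2.28), Gpnmb (log2 -0.99) and Cd68 (log2 -0.79). Axl, a further member and a relative of MERTK, fell to 0.0543 ± 0.0672 CPM, against 2.02 ± 0.429 (log2 -4.96; -6.69 without LPS library 1, -5.88 in limma-voom). Among those that rose was Cd52, a small surface glycoprotein (343 ± 30.3 against 50.4 ± 4.79 CPM; log2 2.77, SE 0.09, adjusted p = 2.51e-15). The others that rose were Ccl3, Fth1, Clec7a, Ccl4, Lyz2, Ccl6, B2m, Cst7 and Ctsz. Changes over 2-fold numbered 6 of the rises and 13 of the falls.

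Scavenger and efferocytosis receptors were 7 higher and 10 lower of 22 (median -0.13), and receptors for microbial ligands led the rises. Marco, a scavenger receptor for bacteria, had 1387, 1388 and 1403 CPM in LPS libraries, against 1.35, 1.19 and 1.03 CPM in TGF-β libraries (log2 fold change 10.20, SE 0.13, adjusted p = 3.38e-21), the lowest p of the genes named here. The C-type lectins Clec4e, a receptor for mycobacterial glycolipid, and Clec4n rose to 399.6 ± 57.9 and 198 ± 20.4 CPM, against 1.82 ± 0.594 and 1.59 ± 0.199 CPM in TGF-β cells (log2 7.80 and 6.96). Further members were the scavenger receptors Msr1 (35.5 ± 4.57 against 2.75 ± 0.876 CPM; log2 3.67) and Cd36 (20.7 ± 1.23 against 3.74 ± 0.602 CPM; log2 2.46), which rose, and the mannose receptor Mrc1 (129.5 ± 5.73 against 346 ± 16.2 CPM; log2 -1.42), which fell. Mrc1 was highest in control cells, at 677 ± 55.5 CPM. Cd36 did not differ from control in LPS cells by the test (log2 0.28, adjusted p = 0.098) and was below it in TGF-β cells (log2 -2.18).

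Apolipoproteins and LXR targets, which carry lipid out of cells, were mostly lower in LPS cells, and sterol synthesis genes mostly higher. Apolipoproteins and LXR targets were lower in LPS cells in 12 of 19 cases and higher in 4 (median -0.74). Mylip, a ubiquitin ligase induced by LXR, had 26, 23.9 and 25.5 CPM in LPS libraries, against 97.9, 96.6 and 97.3 CPM in TGF-β libraries (log2 fold change -1.95, SE 0.09, adjusted p = 2.74e-13). Further members that rose were Soat1 (log2 0.48), Abca7 (0.31) and the receptor LXRα, Nr1h3 (0.44, adjusted p = 0.00909, 0.0768 without LPS library 2). For Soat1, LPS cells did not differ from control by the test (log2 -0.05, adjusted p = 0.604), and TGF-β cells were below it (log2 -0.52). The LXR target Arl4c fell (9.87 ± 1.53 against 51.1 ± 2.55 CPM; log2 -2.37), and the further member Apoc1 fell to 0.346 ± 0.113 CPM, against 50.8 ± 7.98 (log2 -7.13). Cholesterol and fatty acid synthesis was higher in 18 of 29 cases and lower in 2 (median 0.52). Mvd had 164, 190.3 and 196 CPM in LPS libraries, against 71.8, 72.1 and 78.7 CPM in TGF-β libraries (log2 fold change 1.30, SE 0.09, adjusted p = 4.13e-10), and the later enzymes Fdft1 (log2 1.43) and Lss (log2 1.12) rose with it. Insig1, a further member that holds back sterol synthesis, was above control under both treatments (LPS log2 2.50, TGF-β log2 1.34) and higher in LPS cells (log2 1.16). The 2 that fell were the desaturases Scd2 (1931 ± 105 against 4259 ± 320.2 CPM; log2 -1.14) and Fads1 (log2 -0.55, adjusted p = 2.89e-07).

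Lysosomal enzymes and the proton pump were lower in LPS cells in 30 of 39 cases and higher in 5 (median -0.58), and 8 of the falls were of more than 2-fold. The mannosidase Man2b1 had 216, 237 and 232 CPM in LPS libraries, against 921, 877 and 862 CPM in TGF-β libraries (log2 fold change -1.96, SE 0.06, adjusted p = 4.15e-15). Atp6v0d2, a pump subunit of macrophages and osteoclasts, fell to 12.3 ± 2.33 CPM, against 134 ± 16.2 (log2 -3.44, SE 0.13, adjusted p = 3.27e-13), and TGF-β cells did not differ from control by the test (adjusted p = 0.849). The 5 that rose, further members, were Psap (log2 0.90), Gaa (0.31), Atp6v1h (0.24), Ctsz (0.26) and Neu1 (0.27).

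Glycolysis and hypoxia genes were 16 lower and 8 higher of 32 (median -0.30). The 8 that rose were Eno1, Hk1, Pfkp, Ldha, Pgk1, Ero1l, Higd1a and Gapdh, none over 2-fold. Of the falls 9 were over 2-fold. Glycolytic enzymes went both ways, with Pfkm, Hk2, Pfkl and Pgam1 among the falls. The mitophagy receptor Bnip3, a HIF-1 target, had 23.6, 19.7 and 20.2 CPM in LPS libraries, against 179.7, 149 and 168 CPM in TGF-β libraries (log2 fold change -2.97, SE 0.10, adjusted p = 5.08e-15). The HIF targets Egln3 (15.1 ± 1.97 against 78.3 ± 8.21 CPM; log2 -2.37), Ndrg1 (39.6 ± 2.44 against 154 ± 19.4 CPM; log2 -1.96) and Ankrd37 (0.803 ± 0.117 against 6.68 ± 2.03 CPM; log2 -3.05) fell. These 3 were below control in TGF-β cells too (log2 -0.65, -1.43 and -1.80). Hif1a, a further member, was at 102 ± 18.5 against 208 ± 16.8 CPM (log2 -1.02) and above control in both.

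DNA replication and mitosis genes were higher in LPS cells in 38 of 49 cases and lower in 1, with a median of 0.67 and 11 over 2-fold. Cyclin E1 (Ccne1) had 61.4, 69.3 and 64.3 CPM in LPS libraries, against 19.6, 20.9 and 26.5 CPM in TGF-β libraries (log2 fold change 1.54, SE 0.12, adjusted p = 1.96e-09). Cyclin D1 (Ccnd1, 73.6 ± 2.71 against 21.1 ± 1.3 CPM; log2 1.80), Ccnd3 (log2 0.99) and the replication factor Mcm10 (81.2 ± 7.98 against 28 ± 3.76 CPM; log2 1.53) rose. The proliferation marker Mki67, a further member, did not pass (98.4 ± 8.74 against 98.8 ± 24.3 CPM; adjusted p = 0.981), nor did Top2a (log2 0.30, adjusted p = 0.0939; 0.0483 in DESeq2, 0.0186 in limma-voom and 0.00279 without TGF-β library 3). Both were above control under each treatment, Mki67 by log2 0.87 and 0.88. The 1 that fell was E2f2 (log2 -0.58, adjusted p = 1.56e-05).

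Housekeeping complexes showed small changes. Proteasome subunits were higher in 33 of 37 cases and 4 did not pass (without TGF-β library 3, and in limma-voom, 1 was lower), with a median of 0.55. Psmd10 had 121, 114 and 113 CPM in LPS libraries, against 39.4, 40.6 and 41.6 CPM in TGF-β libraries (log2 fold change 1.52, SE 0.08, adjusted p = 1.11e-11). Psma6 (log2 1.03), the immunoproteasome subunit Psmb8 (log2 0.98) and Psmd5 (log2 0.85) also rose. Nuclear-encoded subunits of oxidative phosphorylation were higher in 45 of 77 cases and lower in 5 (3 with scaling by library size), with a median of 0.24. They were led by the complex III subunits Cyc1 (389.6 ± 52.1 against 196 ± 12.9 CPM; log2 0.99), Uqcrq (log2 0.98) and Uqcr10 (log2 0.82) and the complex IV subunit Cox7a2 (log2 0.79). The 5 that fell, further members, were Ndufv3 (log2 -0.56), Cox7a1 (-1.36), Ndufs1 (-0.30), Sdha (-0.19) and Cox6a1 (-0.25). Sdha did not pass without LPS library 3 (0.0675), Cox6a1 without LPS library 1 (0.1097) or TGF-β library 2 (0.186), and neither with scaling by library size. Cytosolic ribosomal proteins were 25 higher (40 with scaling by library size) and 12 lower of 78 (median 0.10), with Rps27l (log2 0.74), Rpl27 (0.63) and Rps15a (0.55) up and Rpl10a (-0.67) down. The median of all genes was 0.09 with scaling by library size alone and 0.01 with TMM. Ribosomal protein genes have many processed copies that can share reads.

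The unfolded protein and integrated stress response was higher in 14 of 28 cases and lower in 5 (median 0.37). The serine synthesis enzyme Psat1 had 433, 514 and 488 CPM in LPS libraries, against 112, 119 and 118 CPM in TGF-β libraries (log2 fold change 2.04, SE 0.07, adjusted p = 1.17e-14). Slc7a11, the cystine importer shared with the NRF2 list, had 261, 227 and 240.0 CPM in LPS libraries and 7.07, 7.66 and 8.71 CPM in TGF-β libraries (log2 fold change 4.95, SE 0.16, adjusted p = 8.31e-13). Edem1, which helps to clear misfolded proteins, fell (186 ± 11.3 against 475 ± 27.2 CPM; log2 -1.35), and the other 4 that fell were Xbp1 (log2 -0.49), Sel1l (-0.44), Dnajc3 (-0.52) and Calr. Herpud1 rose (118 ± 10.2 against 49.5 ± 5.07 CPM; log2 1.25).

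Integrins and adhesion molecules were 8 higher and 11 lower of 23 (median -0.28). Icam1, the ligand of leukocyte integrins and an NF-kB target, had 168, 174 and 189 CPM in LPS libraries, against 61.2, 64.3 and 52.4 CPM in TGF-β libraries (log2 fold change 1.58, SE 0.08, adjusted p = 4.34e-12). Itgax, Itgav and Mcam, described above, were the members of lowest p beside it. Coagulation factors and extracellular proteases were 10 higher and 8 lower of 22, with a median of 0.48, or 0.34 with silent genes at their limits. The gelatinase Mmp9 had 66.4, 80.3 and 80.3 CPM in LPS libraries, against 1.99, 1.53 and 2.36 CPM in TGF-β libraries (log2 fold change 5.25, SE 0.18, adjusted p = 6.11e-15). The macrophage elastase Mmp12 had 32, 43.8 and 44.5 CPM in LPS libraries and 2.85, 3.22 and 3.66 CPM in TGF-β libraries (log2 fold change 3.62, SE 0.15, adjusted p = 7.37e-14), both below control (92.3 ± 5.82 CPM). The protease Adam8 (165 ± 27.5 against 25.6 ± 3.26 CPM; log2 2.68) and the protein C receptor Procr (229.5 ± 19.6 against 71.6 ± 5.52 CPM; log2 1.68) rose. Urokinase (Plau), a further member, fell (6.51 ± 1.01 against 44.7 ± 6.27 CPM; log2 -2.78).

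All 17 eicosanoid and leukotriene genes passed, 7 higher and 10 lower (median -0.38). The cyclooxygenases went opposite ways. Ptgs1, the constitutive enzyme, had 14.6, 13.2 and 15.2 CPM in LPS libraries, against 67.6, 65.8 and 65.8 CPM in TGF-β libraries (log2 fold change -2.21, SE 0.14, adjusted p = 4.67e-11), while the inducible Ptgs2, a further member, was at 26.8 ± 2.15 against 2.91 ± 0.891 CPM (log2 3.18, adjusted p = 7.63e-10). For Ptgs2, LPS over control was log2 0.50 and TGF-β over control log2 -2.69. Ptgr1, which inactivates prostaglandins and leukotriene B4, rose (291 ± 5.85 against 44.1 ± 2.32 CPM; log2 2.72, SE 0.08, adjusted p = 4.58e-16). Cyp4f18, which also clears leukotriene B4, fell to 15.1 ± 3.88 CPM, against 227 ± 14.8 (log2 -3.91, SE 0.17, adjusted p = 4.23e-11), with LPS cells at the control level of 14.5 ± 1.68 CPM. The lysosomal phospholipase Pla2g15 fell (67.1 ± 6.33 against 289 ± 37.3 CPM; log2 -2.11), and Pla2g7, a further member that degrades platelet-activating factor, rose (7.88 ± 1.04 against 0.604 ± 0.200 CPM; log2 3.68).

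EVs of LPS cells and EVs of TGF-β cells were compared in the same way to ask whether the RNA of the vesicles differed as that of the cells did. The libraries were not alike in depth or completeness. Those of LPS EVs held 3.02 to 6.28 M counts with 0.49% to 4.42% of listed genes at 0, and those of TGF-β EVs 4.56 to 9.8 M counts with 19.58% to 50.0% at 0. The median log2 change over all genes was 0.66 in EVs (0.91 with RLE scaling, 1.16 with library size), so EV changes are read against that shift, and the part of completeness in them was not tested. Of 12701 genes tested, edgeR called 3 higher and 3 lower (0.0236% each, 0.0472% in all), against 2495 at an unadjusted p under 0.05. Other fits of all libraries gave from 3 to 3557 higher and from 2 to 859 lower, and leaving out any 1 library left at most 2 higher and 0 lower, so the EV calls depend on the fit. The 3 higher were Lars2, Gm23935 and Gm26917, and the 3 lower Dgkd, Poldip2 and Arhgap19, chosen after their values were seen. Lars2 had 2184, 1673 and 2942 CPM in LPS EVs, against 167, 114 and 77.3 CPM in TGF-β EVs (log2 4.24, adjusted p = 0.0126). In cells Lars2 was not called (log2 -0.47, adjusted p = 0.077). Arhgap19, a GTPase-activating protein, had 83.9, 107 and 64.1 CPM in LPS EVs and 1498, 1123 and 1835 CPM in TGF-β EVs (log2 -4.13, adjusted p = 0.0495), and fell in cells as well (log2 -1.24). Dgkd, a lipid kinase, fell in EVs (log2 -3.27, adjusted p = 0.0165) and in cells (log2 -1.11). Poldip2 fell in EVs (log2 -2.48, adjusted p = 0.0484) and did not pass in cells (log2 -0.09, adjusted p = 0.327). Counts of Lars2, Gm23935 and Gm26917 can be shared between repeated copies.

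Of the 12 genes with the largest rises in cells, 11 could be tested in EVs. All 11 had a higher fitted level in LPS EVs, none past edgeR's threshold (3 at an unadjusted p under 0.05, 1 in DESeq2, 8 in limma-voom). The median of all tested genes was also toward LPS EVs, at log2 0.66, so directions are read against that shift. The groups did not overlap in 7 of the 12, all higher in LPS EVs, where 29.3% of all tested genes did the same. Lcn2 had 313, 229 and 335 CPM in LPS EVs, against 44.9, 249 and 23.6 CPM in TGF-β EVs (adjusted p = 0.785), so TGF-β EVs held Lcn2 counts although TGF-β cells had 1 count in all. Csf3 had 56.5, 48.5 and 32.7 CPM in LPS EVs and 0, 3.92 and 0 CPM in TGF-β EVs, and Cxcl2 38.9, 18.9 and 18.3 CPM and 0, 1.79 and 0 CPM. Of the 12 genes with the largest falls, 10 could be tested. Against the same shift, 2 of these were lower in LPS EVs, and none of the 10 passed edgeR's threshold (3 at an unadjusted p under 0.05, 0 in DESeq2, 5 in limma-voom). The groups did not overlap in 5 of the 12, and in these LPS EVs were the higher ones, as in 29.3% of all tested genes, while in 9.02% LPS EVs were the lower ones with no overlap. Olfml3 had 42.4, 32 and 109 CPM in LPS EVs and 12.9, 32.6 and 78.9 CPM in TGF-β EVs, where the cells differed by log2 -10.50. Mcam, with no count in LPS cells, had 2.38, 16.7 and 3.14 CPM in LPS EVs and no count in TGF-β EVs. The difference between compartments passed the test for 6 of the 12 rises and 12 of the 12 falls. Since these genes were chosen for their change in cells, which enters that difference, the counts are a description and are not set against the share of all genes.

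**Figure D5:**
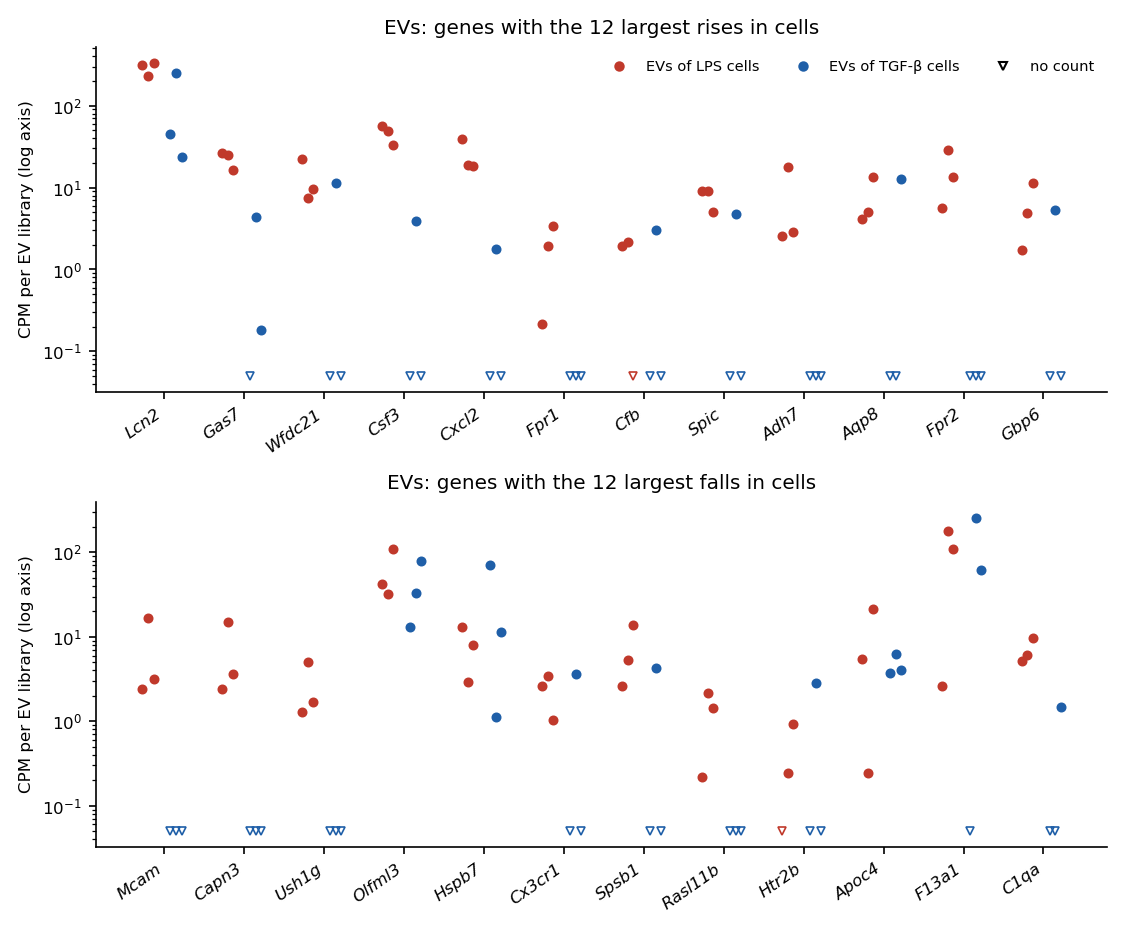
CPM of each EV library (log axis) for the genes with the 12 largest rises (top) and 12 largest falls (bottom) in cells, in EVs of LPS cells and EVs of TGF-β cells; open triangles mark libraries with no count. In the top panel 7 genes do not overlap and are higher in LPS EVs, and in the bottom panel 5 genes do the same although they fell in cells.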

How the data were processed

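RNA of BV2 cells and of their EVs was made into SMART-Seq v4 cDNA and Nextera XT libraries with 18 cycles of PCR and read as pairs of 150 bases on a HiSeq X, per the labels' protocols. The 6 deposited tables hold raw whole-number counts of 13290 genes in 24 libraries in 8 groups of 3, per the file headers and values. DESeq2 is the tool named by the submitters' processing notes; of the aligner, strand setting and build the sources used here give nothing. No listed gene has under 240 counts over the 24 libraries, so rarer genes were not analysed here. The control columns of the cell tables are identical and were used once, and 0 columns were left unmapped. Rows named by numbers (16) and repeated symbols (3) stayed in the fits and were not named. No pair within the LPS cells or within the TGF-β cells agreed within sampling noise, and other pairs were not checked.

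The main fit used edgeR 4.0.16 (TMM, filterByExpr, robust quasi-likelihood, Benjamini-Hochberg over all 12148 tested genes) on the 12 cell libraries, with the contrast LPS minus TGF-β. A fit of the 12 EV libraries and a fit of LPS and TGF-β cells and EVs with an interaction term followed. A group with no count was set at 3 counts per library and its fold printed as a limit.

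The rule for named genes took the 12 largest called rises and falls without overlap whose higher group averaged 50 counts or more, leaving out unnamed gene models, then the 4 members of lowest adjusted p in each list, then 21 fixed genes; a few genes the rule names are not reported here. The members and lists were chosen with earlier results of these data known, and lists were described by counts and medians with no set test. Alternatives were RLE and library size scaling, limma-voom (limma 3.58.1, quality weights), DESeq2 1.42.0, no filter, a mean of at least 50 counts, the 6 libraries alone and leaving out each library. The columns carry no pairing of replicates. Software was Python 3.11.15 (pandas 2.3.3, numpy 2.4.6, scipy 1.17.1, matplotlib 3.10.9) and R 4.3.3.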

Additional observations from a re-analysis of the deposited data

Results flagged for a closer look

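For 18 of the 24 genes with the largest changes in cells, the difference between LPS and TGF-β in cells minus that in EVs passed a test. Each value that follows is the log2 change of LPS over TGF-β in cells minus that in EVs, from edgeR's interaction test at an adjusted p under 0.05. The genes were chosen for their change in cells, which enters the difference, so their number is a description. Among the rises the difference was 15.28 for Lcn2, 10.42 for Cfb, 10.14 for Wfdc21, 9.65 for Gas7, 8.55 for Gbp6 and 8.42 for Spic. Among the falls it was -21.68 for Mcam, -20.63 for Capn3, -18.86 for Ush1g, -15.99 for Rasl11b, -11.90 for C1qa, -11.29 for Spsb1 and -11.00 for Olfml3. It was -9.83 for Apoc4, -9.70 for Cx3cr1, -8.30 for Hspb7, -8.18 for F13a1 and -7.55 for Htr2b. Fitted values of genes with no count in a group depend on the prior count and are no measure of size. LPS EV libraries had 0.49% to 4.42% of listed genes at 0 and TGF-β EV libraries 19.58% to 50.0%, and the part of this in the differences was not tested.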

How the results depend on the processing

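No paired analysis was possible because the columns carry replicate numbers that tie to no label, culture or day. In cells, the counts of 3560 higher and 3379 lower genes stayed within 1.5 times under all 13 alternatives, and leaving out 1 library gave 3178 to 3470 higher and 3017 to 3264 lower. No result changed direction past the threshold. Among the 3362 values of named genes under alternatives, 36 lost and 11 gained a call, and of 832 list counts 7 moved by over 1.5 times. In EVs the counts of 3 higher and 3 lower genes were 6 and 16 with RLE factors, 910 and 294 in DESeq2, 3557 and 859 in limma-voom and 1579 and 431 in the 6 libraries alone, and library size gave 5 higher. Leaving out 1 library gave 0 to 2 higher and 0 lower in EVs. The cause was not tested. For genes changed by over 2-fold the promoter shares moved to 13.0% (NF-kB, higher), 7.50% (interferon-stimulated response element, higher), 19.2% (CAGACA, lower), 10.4% and 6.81% (AP-1, higher and lower) and 4.45% (PU.1, higher). Depth limits genes under about 0.1 CPM in cells and under about 1 CPM in EVs.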
